A study of Mus musculus with 50 samples.

Results

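The regions described here are 1901 m6A peaks that lie at the start of a transcript, more than 50 nt from the nearest copy of a consensus motif, on transcripts that also carry a peak further along. They were chosen from the authors' deposited table of 32009 peaks by 3 of its columns: the transcript part had to be the transcript start, the absolute distance to the motif had to exceed 50 nt, and the same transcript had to have at least 1 peak in another part. They make up 5.94% of all peaks, 27.7% of the 6864 transcript-start peaks and 47.4% of the 4011 start peaks on transcripts with a peak elsewhere, and they lie on 1896 transcripts. They are called distant-motif start peaks below, and the peaks elsewhere on their transcripts are called partner peaks.

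N6-methyladenosine (m6A) is a modified base found within messenger RNA. A nuclear complex writes most of it, with METTL3 as the catalytic subunit, at adenosines in a short consensus sequence, and the marked sites gather in long internal exons and near the stop codon. Reader proteins such as YTHDF2 and IGF2BP3 bind marked messages and alter their decay or stability. The first transcribed base after the cap can carry a related mark, m6Am, which the enzyme PCIF1 writes and which antibodies to m6A also bind. Whether any peak described here holds m6Am was not measured.

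The peaks came from 12 m6A-seq libraries of mouse B cells cultured overnight with LPS, a bacterial lipopolysaccharide that activates B cells and sets them dividing. There were 4 groups of 3 libraries: immunoprecipitated (IP) and Input RNA from AIDcre Mettl3-flox/flox cells, and IP and Input RNA from AIDcre Mettl3-flox/+ cells. Both genotypes carry AIDcre, a recombinase driven by the gene for AID, which B cells switch on once activated, so the control cells carry it too and keep 1 allele that cannot be deleted. The strain label reads C57BL with a suffix that differs in every one of these libraries, whether the replicates were separate mice is unstated, and the extent of Mettl3 deletion after overnight culture was not analysed here.

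Each peak has 1 pooled score for an arm that the table calls test and 1 for an arm it calls control, in 2 score versions. The authors' METTL3-dependent list holds peaks with a higher test arm, so the test arm was read as the flox/+ cells and the other arm, called the comparator arm here, as the flox/flox cells. Every direction below rests on that reading. The formula of the score and the scaling of the arms to each other were not given in the sources used here. Differences are therefore in score units, and no value per library, read depth or spread between replicates could be given. Because the arms are pooled, the comparisons between sets of peaks below are descriptions without a test. Their intervals cover counting over peaks only, as peaks of 1 table share their libraries and are not replicates.

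The values that chose the peaks are given as a description. Transcript-start peaks of the table all lay between nucleotides 12 and 199 of the transcript, and all other peaks at nucleotide 200 or beyond, so the class is the first 199 nt. The distant-motif start peaks had a median position of nucleotide 80 (quartiles 58 to 112, lowest 16). Their median distance to the motif was 120 nt (quartiles 76 to 200, highest 918). The sign of the distance could be settled from the table. Read as peak minus motif, no motif of the 32001 peaks with a distance fell before the transcript start, whereas the opposite reading placed 2333 motifs before it. On that reading the nearest motif lay downstream of the peak for 1629 of the 1901 (85.7%) and upstream for 272 (14.3%). Among the 4705 peaks outside the transcript start that lay over 50 nt from the motif, it was downstream for 50.1%. A start peak has little transcript before it: only the 1584 peaks past nucleotide 50 could have a motif more than 50 nt upstream, and 17.2% of these did.

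The downstream motifs had a median position of nucleotide 227 (quartiles 169 to 305, farthest 1000), and 1008 of them, belonging to 53.0% of the distant-motif start peaks, lay past the first 199 nt altogether. The upstream motifs had a median position of nucleotide 37 (quartiles 20 to 74). On 28 of the 1896 transcripts (1.48%) the nearest motif lay within 50 nt of a partner peak. Being over 50 nt from a motif was more frequent at the transcript start (48.1% of peaks with a distance) than elsewhere (18.7%), and the partner peaks, at 18.3%, were close to the latter.

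**Figure D1:**
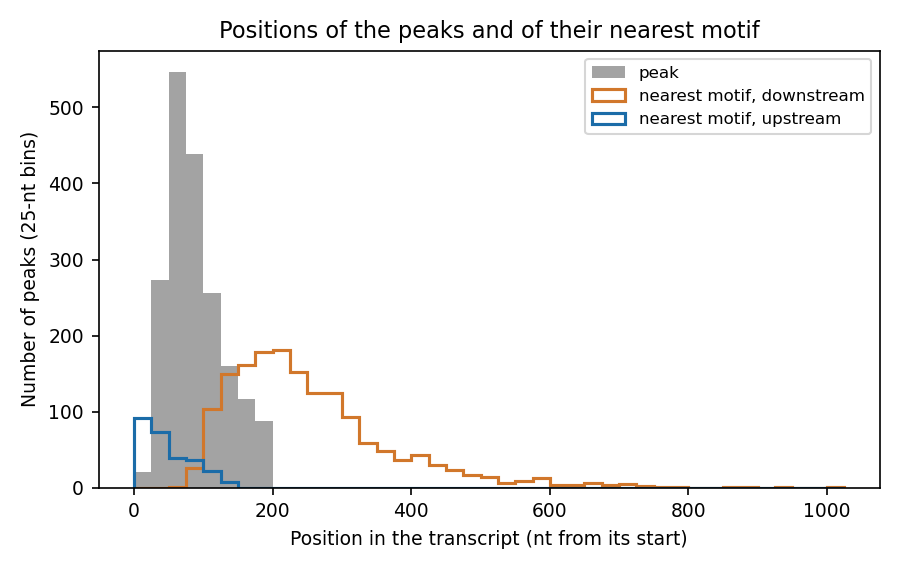
Histogram in 25-nt bins of the position in the transcript (nt from its start) of the 1901 distant-motif start peaks (grey) and of their nearest motif, where it lay downstream (orange, 1629 peaks) or upstream (blue, 272 peaks). The peaks end at nucleotide 199, and the downstream motifs have their median at nucleotide 227 and a tail to nucleotide 1000.

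At the threshold, the authors' deposited table gives the start peak of uc008gqg.1 a distance of 51 nt, with the peak at nucleotide 73 and the motif at nucleotide 22, and scores of 3.01 (test arm) and 2.85 (comparator arm). In the authors' deposited table uc007bqo.2 lies just outside the set at 50 nt, with the peak at nucleotide 96, and scores 5.72 and 6.24. At a distance of exactly 51 nt there were 12 paired start peaks and at exactly 50 nt there were 25. The largest distance was that of uc008npc.1 on chromosome 2 at position 157392016, minus strand. Its peak is at nucleotide 82 and its nearest motif at nucleotide 1000, and the authors' deposited table gives it scores of 1.53 and 2.69, unadjusted p = 0.445. The start peaks of uc012arq.1 (884 nt), uc008hda.1 (801 nt), uc008qmm.1 (745 nt) and uc007nyu.1 (700 nt) followed. All 5 scored lower in the test arm on both versions, with first-version differences of -1.15, -0.46, -0.62, -0.48 and -0.70, but none had an unadjusted p under 0.1. Genome positions are those of the table, taken as mouse build mm9, and strands were read from the order of a transcript's peaks along the chromosome.

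The first question was how the scores of these peaks stood in the 2 genotypes. The columns that chose the peaks hold no score, but the set was chosen with earlier results of these data known. The distant-motif start peaks scored lower in the test arm. On the first version the median score was 2.40 (quartiles 1.64 to 3.31) for the test arm and 2.75 (2.05 to 3.61) for the comparator arm. On the second it was 2.86 (2.13 to 3.50) and 3.07 (2.37 to 3.65). The median difference per peak, test minus comparator, was -0.39 (95% order-statistic interval -0.42 to -0.36; quartiles -0.81 to 0.05) on the first version and -0.22 (-0.24 to -0.20; quartiles -0.52 to 0.11) on the second. Over all 32009 peaks the medians were 0.25 and 0.49, of the opposite sign.

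The comparator arm was the higher one for 1385 of the 1901 peaks (72.9%) on the first version, where 37.9% of all peaks had that direction, and for 1310 (68.9%) on the second, where 30% did. Both versions put the comparator arm higher for 1088 peaks (57.2%) and the test arm higher for 294 (15.5%). The remainder include 518 peaks (27.2%) to which the versions gave unlike signs. The difference per peak correlated between versions with r = 0.60 over the 1901 peaks, which come from the same libraries in both. Since the scaling between arms is unknown, the position relative to all peaks is also given. Their median difference minus the all-peak median was -0.63 on the first and -0.70 on the second version. Of the distant-motif start peaks, 83.1% and 89.2% fell below the all-peak median on the first and second versions.

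**Figure D2:**
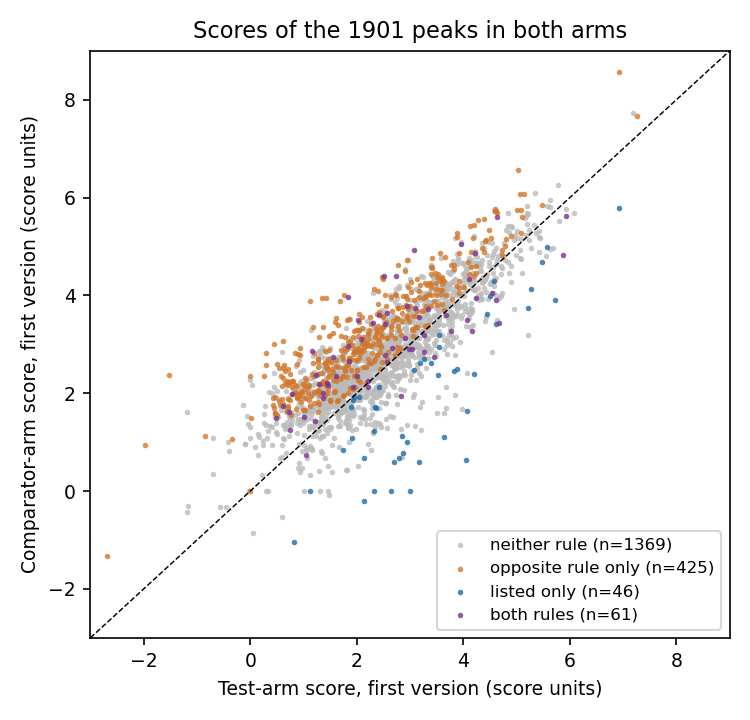
First-version scores of the 1901 distant-motif start peaks, test arm (horizontal) against comparator arm (vertical), in score units, with the line of equal scores. Colours mark peaks that met only the rule of the METTL3-dependent list (46), only its opposite (425), both (61) or neither (1369); most points lie above the line, the 1385 peaks with the higher comparator score.

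The authors' METTL3-dependent list takes peaks with an unadjusted p under 0.1 on either version and a higher test arm on either version. Of all peaks, 28.1% are listed. Of the distant-motif start peaks 107 were listed, or 5.63% (exact Clopper-Pearson 95% interval 4.64% to 6.76%). The opposite rule asks for the same p and a higher comparator arm. Of all peaks 10.7% met it, and of the distant-motif start peaks 486 did, or 25.6% (23.6% to 27.6%). With p and direction taken from 1 version, 64 peaks (3.37%) were higher in the test arm, against 26.7% of all peaks, and 468 (24.6%) were higher in the comparator arm, against 8.59%.

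As the list lets p and direction come from different versions, a peak can meet both rules. Of the 107 listed distant-motif start peaks, 61 also met the opposite rule and only 46 scored higher in the test arm on both versions. Over all 9005 listed peaks, 13.2% also met the opposite rule. The share was 57.0% of the 107, and it was similar in the other start peaks. It was 49.4% of the 168 listed paired start peaks within 50 nt of a motif. Among the 254 listed start peaks on transcripts with no peak outside the start, it was 58.7%. A distant-motif start peak that met both rules is that of uc007pzt.2 on chromosome 13 at position 32893985, plus strand, nucleotide 87. The authors' deposited table gives it first-version scores of 1.55 (test) and 2.74 (comparator) with unadjusted p = 0.000390, and second-version scores of 4.62 and 4.30 with p = 0.292. It is in the METTL3-dependent list, its small p belongs to a higher comparator arm, and its peak was called in 0 test and 3 comparator replicates.

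No peak of the table, these included, passed correction. With Benjamini-Hochberg adjustment of the authors' p-values over all peaks, the smallest adjusted value among the distant-motif start peaks was 0.330 and 0.219 on the 2 versions, and 0% of all peaks fell under 0.05 on either. Without adjustment, 197 of the 1900 with a first-version p (10.4%) had p under 0.05 with the comparator arm higher, against 3.35% of all peaks, and 15 (0.789%) with the test arm higher, against 8.18%. On the second version these counts were 117 of 1901 (6.15%, all peaks 2.01%) and 24 (1.26%, all peaks 12.9%).

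The table also counts peaks per arm, from 0 to 3, which was read as the number of replicates in which the peak was called. Of the distant-motif start peaks, 1231 (64.8%, 62.6% to 66.9%) were called in at least 2 replicates of an arm, compared with 36.2% of all peaks. The share was 60.5% among paired start peaks within 50 nt of a motif and 61.03% among start-only peaks beyond 50 nt. Calls at least that frequent were made for 47.6% of the distant-motif start peaks in the test arm, and for 59.4% in the comparator arm. All 6 replicates had the peak for 518 (27.2%), and no replicate had it for 108 (5.68%). More comparator than test replicates had the call for 773 peaks (40.7%) and more test replicates for 316 (16.6%). A call in 3 comparator and 0 test replicates was recorded for 50 peaks (2.63%; all peaks 0.918%), and the converse for 9 (0.473%; all peaks 1.95%). The former calls made up 2.84% and 3.87% of those other start sets.

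The calls and the scores come from the same libraries, and they moved together. The 50 peaks called in 3 comparator and 0 test replicates had a median first-version difference of -0.98, and the 9 called the other way a median of 0.88. Peaks called in all 6 replicates had medians of -0.34 and -0.25 on the 2 versions. The lower test-arm score was thus also present among the best-replicated peaks.

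The largest first-version difference towards the comparator arm was at the start of uc009ipg.2 (chromosome 7, position 108986283, minus strand, nucleotide 56), with the nearest motif at nucleotide 219. The authors' deposited table scores it -1.53 (test) and 2.38 (comparator), unadjusted p = 0.00696, with 1.06 and 3.81 on the second version. In the same table its 5' UTR partner at nucleotide 272 scored -0.87 and 1.69, the same direction, while its partner at the stop codon, nucleotide 4251, scored 2.33 and 0.92. Its 3 coding-sequence partners had differences of 0.94, -0.34 and 0.04, and its 3' UTR partner one of 1.09.

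Next by first-version difference came uc009rjk.2 (chromosome 9, 106183430) with -1.97 and 0.94, uc011zho.1 (chromosome 14, 26588180) with -1.20 and 1.61, uc009nud.1 (chromosome 8, 125589441) with 1.13 and 3.88, and uc008azv.1 (chromosome 17, 25270397) with 1.35 and 3.96 in the authors' deposited table. The last 2 were called in 3 comparator and 0 test replicates, and the others in 1 comparator replicate only. For uc009nud.1 the authors' deposited table gives unadjusted p = 0.00399 and, on the second version, 0.0230. Its 2 stop-codon partners, at nucleotides 2343 and 2445, had differences of 1.27 and 0.57, both towards the test arm. On the first version the partners of the others did not all oppose their start. Of the 5 partners of uc011zho.1 in the 3' UTR, 4 were also lower in the test arm (-0.35, -1.09, -1.37 and -1.34) and 1 was higher (0.53). In the same order, their second-version differences were 0.26, 0.29, -0.03, -0.36 and 1.68. On uc008azv.1 the stop-codon partner had -1.85, and its 4 partners in the 3' UTR had 0.52, 1.39, -0.53 and -0.08. The 5' UTR and coding-sequence partners of uc009rjk.2 had -0.07 and 0.46 on the first version.

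The lowest first-version p in the authors' deposited table was that of uc009ioc.2 (chromosome 7, 108257329, plus strand, nucleotide 41), 0.000104, with scores of 1.88 (test) and 3.07 (comparator) and second-version scores of 2.83 and 3.79 (p = 0.0339). It was called in 0 test and 3 comparator replicates. Its 3 partner peaks in the 3' UTR had differences of 0.83, 0.87 and 1.39, and all are in the METTL3-dependent list. Below it ranked uc009tbw.1 on chromosome X (1.56 and 2.28, p = 0.000163), uc007pzt.2, uc009nlb.1 (4.15 and 4.57, p = 0.000914) and uc007dfm.1 (1.85 and 3.51, p = 0.000917), by the authors' deposited table. Of these, uc009nlb.1 was called in all replicates of both arms, and the others in 3 comparator and 0 test replicates.

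In the other direction, the highest first-version difference among the distant-motif start peaks was 3.42, that of uc007ewm.2 (chromosome 10, 39862023, minus strand, nucleotide 38). The authors' deposited table scores it 4.05 (test) and 0.63 (comparator), unadjusted p = 0.0181, and 4.01 and 1.43 on the second version (p = 0.111). It was called in 2 test replicates and no comparator replicate. Its 2 coding-sequence partners, with differences of 2.01 and 1.18, were higher in the test arm as well. The next 4 were uc008zhm.1 (3.001), uc007gsd.1 (2.64), uc008rfd.1 (2.57) and uc009sfg.1 (2.52), each called in 1 or 2 test replicates and in no comparator replicate. On uc007gsd.1 all 7 partner peaks also had positive first-version differences, from 0.54 to 3.19. All 5 start peaks are in the list, and all their partner peaks had positive first-version differences. On the second version the uc007ewm.2 partner at nucleotide 1100 had -0.62 and the 3' UTR partner of uc007gsd.1 had -0.40, while their other partners stayed positive. The first-version comparator score was 0 for the start peaks of uc008zhm.1 and uc007gsd.1.

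By first-version p, the leading peaks with a higher test arm in the authors' deposited table were uc007flq.1 (p = 0.00187), uc008sxw.2 (p = 0.0133), uc008wxk.2 (p = 0.0134), uc007lhj.2 (p = 0.0140) and uc008saa.1 (p = 0.0144). For uc008sxw.2, whose nearest motif is at nucleotide 592, the authors' deposited table gives scores of 4.61 and 3.42, and it was called in 3 test and 2 comparator replicates. Its stop-codon partner had 5.88 and 3.94. The peak of uc007flq.1 was called in no replicate and scored 1.12 (test) and 0 (comparator). Those of uc008wxk.2 and uc007lhj.2 were each called in 0 test and 1 comparator replicates, and that of uc008saa.1 in 1 test replicate only. On the second version uc008wxk.2 scored 3.30 and 3.47, the other direction, and it met both rules.

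Of the 5 distant-motif start peaks with the highest first-version mean score, 4 had the lower first-version score in the test arm. The ranking belongs to that version. On the second, uc008dqq.2 scored 2.46 (test) and 2.62 (comparator), below the medians of the distant-motif start peaks, 2.86 and 3.07. The mean score of both arms was highest for uc007vnb.1 (chromosome 15, 36937050, minus strand, nucleotide 108), at 6.92 (test) and 8.57 (comparator), and then for uc008ntg.2 (7.26 and 7.66) and uc008dqq.2 (7.18 and 7.72), by the authors' deposited table. The fourth, uc008jja.2, scored 6.91 and 5.79 and is listed, and the next, uc007khd.2, scored 5.77 and 6.25 with the second version reversed (4.10 and 3.88). A high score did not always go with a call: uc008dqq.2 and uc007khd.2 were called in no replicate, and uc008jja.2 in 1 comparator replicate only. On uc008ntg.2, called in all 6 replicates, the stop-codon partner at nucleotide 1482 scored 4.23 and 3.36, so that start and stop codon differed in direction. On uc007vnb.1 the 3 partners in the 3' UTR had first-version differences of -0.60, -2.31 and -0.05, the direction of its start. On the second version they had 0.49, -1.29 and 1.15, and the start -0.45.

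The question that the pairing allows is how the start of a message compares with the rest of the same message. The 1896 transcripts carried 4661 partner peaks, with a median of 2 and a highest number of 19. There was 1 partner on 784 transcripts, 2 on 443 and 3 or more on 669. A peak around the stop codon was present on 1249 transcripts (65.9%), in the coding sequence on 854 (45.04%), in the 3' UTR on 680 (35.9%) and in the 5' UTR past nucleotide 199 on 98 (5.17%). The nearest partner was a median of 1250.5 nt away in the transcript (quartiles 655.75 to 1979) and 20715.5 nt away in the genome. On 155 transcripts (8.18%) the distances in transcript and genome matched within 5 nt, so no intron separated the pair, and on the other 1741 the genome distance was longer.

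The partner peaks scored higher in the test arm, with a median first-version difference of 0.53 (quartiles 0.02 to 1.01), and 1854 of the 4661 (39.8%) were in the METTL3-dependent list, where 33.7% of all peaks outside the start are. By part, the median was 0.69 around the stop codon, with 51.8% listed (46.8% of all peaks of that part). It was 0.68 in the 3' UTR, with 42.5% listed (all 37.1%), and 0.30 in the coding sequence, with 28.7% listed (all 26.1%). For the 115 partners in the 5' UTR it was 0.07, with 20% listed (all 17.8%). Within the transcript, the start peak had the lower first-version difference on 1683 of 1896 transcripts (88.8%, 87.3% to 90.1%), with a median gap of -0.95 (quartiles -1.41 to -0.44). On the second version it was lower on 1645 (86.8%), with a median gap of -0.98. The gap within a transcript does not depend on a constant offset between arms. An offset that changes with score level or position would not cancel, and this was not tested.

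On 1040 transcripts (54.9%) the start peak lay below 0 and the median partner above 0, and on 51 (2.69%) the reverse held. Both lay above 0 on 461 (24.3%) and both below on 341 (18.0%). A listed partner was present on 1172 transcripts (61.8%), a listed start peak on 107, and both on 74. On 329 transcripts (17.4%) a partner was listed while the start peak met the opposite rule. The opposite rule was met by 28.1% of the 1175 start peaks with a listed partner and by 21.5% of the 726 without. Over all distant-motif start peaks it was met by 25.6%, and a link between start and partner was not tested. The start peak's and the partners' first-version differences correlated with r = 0.37 (Spearman rho = 0.35) over 1896 transcripts that share their libraries, and with r = 0.02 (rho = 0.01) on the second version.

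**Figure D3:**
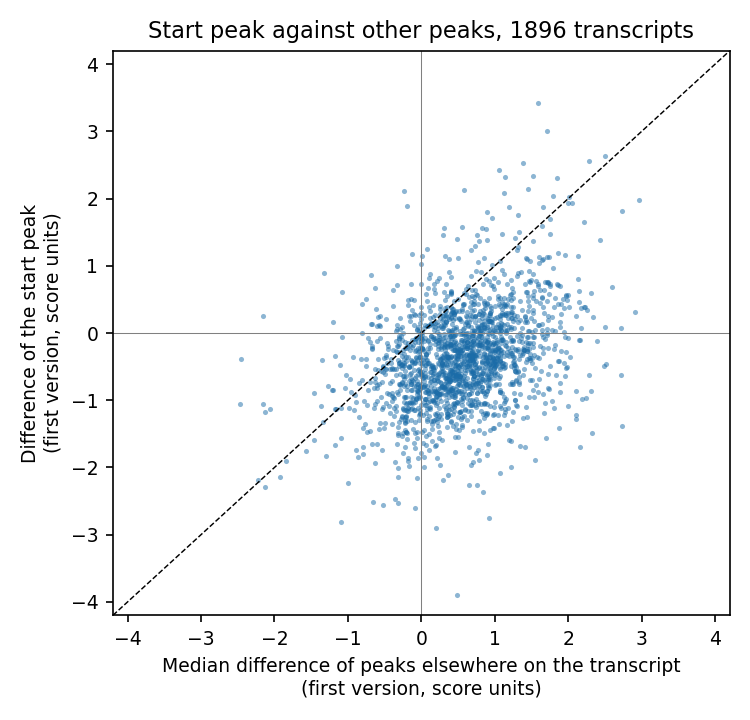
First-version score difference, test minus comparator arm, of the start peak (vertical) and the median of the peaks elsewhere on the same transcript (horizontal), in score units, 1 point per transcript, with the line of equality. Points lie below the line for 1683 of 1896 transcripts, and the lower right quadrant, start below 0 and partners above 0, holds 1040.

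The strongest peak of a message was compared between the arms. The distant-motif start peak outscored every partner on 714 of the 1896 transcripts (37.7%, 35.5% to 39.9%) in the test arm and on 1202 (63.4%, 61.2% to 65.6%) in the comparator arm. The second version gave 631 (33.3%) and 1121 (59.1%). In the arm read as flox/flox, the start was the leading peak of most of these messages, and in the arm read as flox/+ a peak elsewhere was. The near-motif start peaks of paired transcripts showed the same, leading on 41.7% of 2017 transcripts in the test arm and on 66.4% in the comparator arm.

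Distance from the motif and position in the transcript were compared among the distant-motif start peaks. From 51 to 75 nt of the motif, 37 of 465 were listed (7.96%, 5.66% to 10.8%) and 103 met the opposite rule (22.2%, 18.5% to 26.2%). From 201 to 300 nt these shares were 5.34% and 33.6% (27.9% to 39.7%) of 262 peaks, and beyond 300 nt 3.32% (1.34% to 6.72%) and 29.4% (23.3% to 36.0%) of 211. The median first-version difference was -0.37 in the nearest of these bins, -0.28 from 101 to 150 nt and -0.48 beyond 300 nt, so it did not fall evenly from bin to bin. The median position also varied over the bins, from nucleotide 92 at 76 to 100 nt to nucleotide 70 beyond 300 nt, with nucleotide 84 in the nearest bin. The share called in at least 2 replicates of an arm was 58.7% in the nearest bin, 70.6% from 151 to 200 nt and 67.3% beyond 300 nt. The part of position and calls in these shares was not tested.

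**Figure D4:**
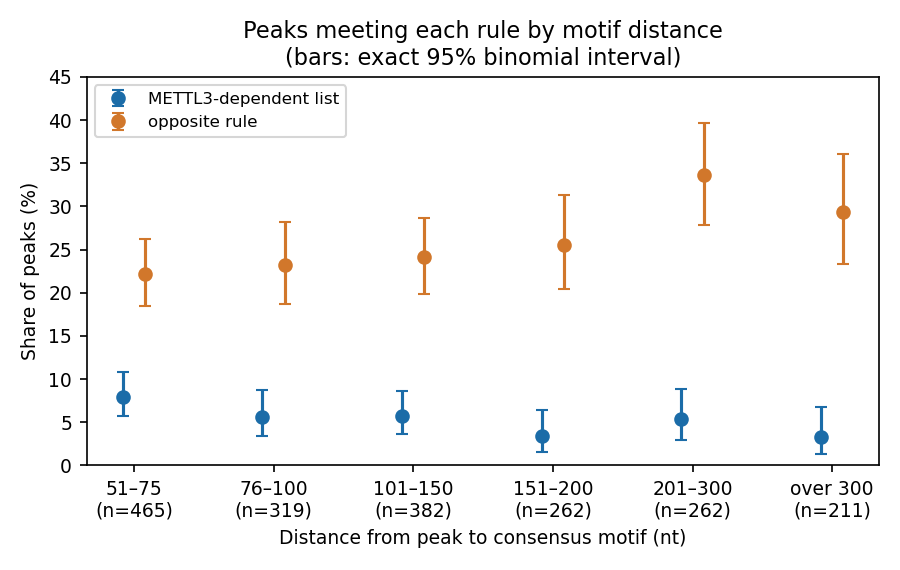
Share of distant-motif start peaks (%) that were in the METTL3-dependent list (blue) or met the opposite rule (orange), by distance to the consensus motif in nt, with exact 95% binomial intervals and the number of peaks per bin. The listed share goes from 7.96% to 3.32% and the opposite share from 22.2% to 29.4% between the end bins, with neighbouring intervals overlapping.

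Split on both measures, the opposite rule was met by 23.9% of the 335 peaks within 100 nt of the motif and before nucleotide 80, and by 21.6% of the 449 within 100 nt and from nucleotide 80 on. Over 100 nt from the motif it was met by 29.6% of 605 and 25.4% of 512. Peaks with the motif upstream had a median difference of -0.34 and those with it downstream one of -0.40. Along the transcript start, the opposite rule was met by 28.5% (25.7% to 31.4%) of 986 peaks at nucleotides 50 to 99 and by 18.5% (13.5% to 24.5%) of 205 at nucleotides 150 to 199. In that last stretch calls were fewer too, with 45.9% called in at least 2 replicates of an arm against 69.98% at nucleotides 50 to 99.

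Peaks of different level had differences of the same sign. The median first-version difference was -0.49 in the lowest, -0.36 in the middle and -0.33 in the highest tertile of the mean score, and the second version gave -0.19, -0.20 and -0.25. The tertiles were cut on the first-version scores themselves. The opposite rule was met by 25.6%, 25.4% and 25.7% of peaks. By kind of partner, the 98 peaks whose transcript had a 5' UTR peak had a median difference of -0.13 (quartiles -0.56 to 0.22), and the 1253 with a stop-codon partner one of -0.40 (-0.83 to 0.03).

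The most alike peaks are the 2110 start peaks within 50 nt of a motif on paired transcripts, chosen by the same rule but for that distance. Their median first-version difference was -0.35 (-0.39 in the distant-motif set) and their median second-version difference -0.15 (-0.22). Of them 168 were listed (7.96%, 6.84% to 9.20%, against 5.63%) and 477 met the opposite rule (22.6%, 20.8% to 24.5%, against 25.6%). The quartiles of both sets overlap almost wholly, and the intervals of the opposite share overlap. The intervals of the listed share do not overlap, nor do those of the second-version median (-0.24 to -0.20 in the distant-motif set and -0.18 to -0.12 in the near-motif set). Over the 4 stretches of the start region, the gap in listed share was widest in the last. At nucleotides 150 to 199, 13.6% (10.03% to 17.9%) of 316 near-motif peaks were listed, against 6.83% (3.78% to 11.2%) of 205 distant-motif peaks. Before nucleotide 50 the order was the other way, 3.20% (1.39% to 6.21%) of 250 near-motif peaks and 5.44% (3.14% to 8.69%) of 294. In both stretches the intervals overlap, and the differences between the sets were not tested.

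Within the transcript, near-motif start peaks had the lower difference on 1669 of 2017 transcripts (82.7%, 81.0% to 84.4%) with a median gap of -0.80, and distant-motif ones on 88.8% with a gap of -0.95. Of the near-motif partners 35.6% were listed, and of the distant-motif partners 39.8%. The other neighbouring set is the 2853 start peaks on transcripts with no peak outside the start. Those over 50 nt from a motif, 1396 of them, had a median first-version difference of -0.28 and second-version difference of -0.23. The opposite rule was met by 30.7% (28.2% to 33.1%) of them, and 8.09% (6.72% to 9.65%) were listed. Both shares were above those of the distant-motif paired peaks, although their median was the nearer to 0 on the first version. Their level was lower, with a median mean score of 2.36 against 2.54.

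**Figure D5:**
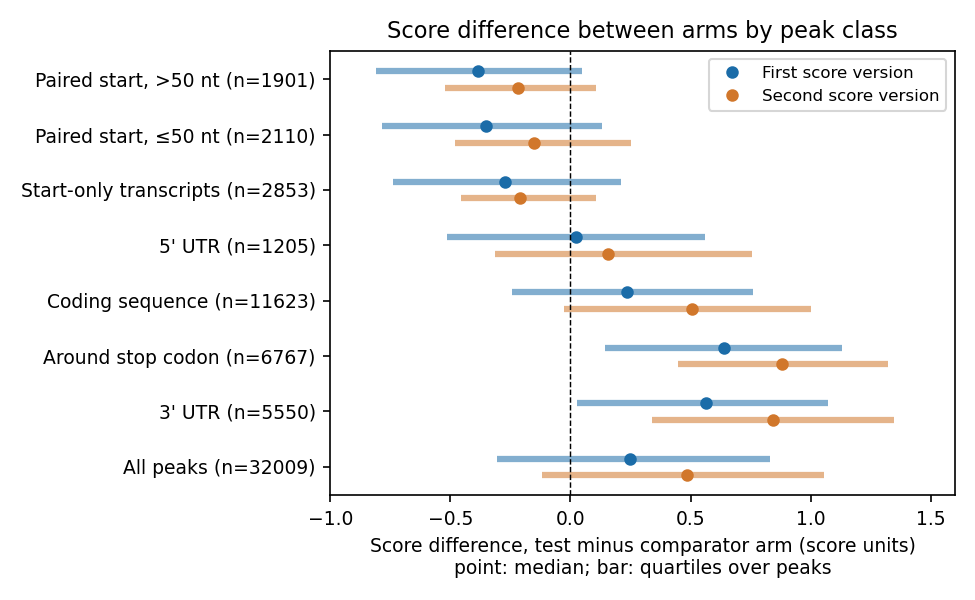
Median (points) and quartiles (bars) over peaks of the score difference, test minus comparator arm, in score units, for the first (blue) and second (orange) score version, by class of peak; the number of peaks stands beside each class. The 3 classes at the transcript start have medians below 0 on both versions, from -0.39 to -0.15, and the 4 classes beyond it have medians from 0.02 to 0.88.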

How the data were processed

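The m6A data were 2 peak tables from 12 libraries, and per the labels' protocols poly(A) RNA was barcoded and precipitated in 2 rounds with an anti-m6A antibody. Per the submitters' processing notes, DESeq2, HTSeq, STAR, cutadapt and SAMtools 1.3.1 and the builds mm9 and mm10 were used somewhere in the series; the peak caller was not given in the sources used here. The peak score was deposited as 1 pooled value per arm and version, and the p-value deposited with it is unadjusted and of unknown test. The other 38 libraries were not analysed here.

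Positions of 164 peaks, 14 of them distant-motif start peaks, exceed their GRCm38 chromosome, so the build was taken as mm9; the genome used here is GRCm38, so no sequence or annotation was read and no position converted. None of the 14219 transcript identifiers matched a name table, so transcripts stand by identifier and the gene lists could not be applied.

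The set, the lists and the named-peak rule (extremes of difference, score, distance and p, and peaks at the threshold) were chosen with earlier results of these data known. All 9005 listed peaks were found in the full table and met the rule given for the list, which no other peak did. Adjustment was by Benjamini-Hochberg over all peaks. Shares have exact Clopper-Pearson and medians order-statistic 95% intervals. Depth is unknown. The calculations were tested on simulated data. Alternatives covered the motif distance, repeated transcripts and positions, weak peaks, calls, p and score version. Python 3.11.15, numpy 2.4.6, pandas 2.3.3, scipy 1.17.1 and matplotlib 3.10.9 were used.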

Additional observations from a re-analysis of the deposited data

How the results depend on the processing

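No paired analysis was possible because the tables hold 1 pooled value per arm, so neither a replicate block nor leaving out a replicate could be run. A turn of direction was checked only for the median differences of the 2 versions, which kept their sign in every setting. Of the 49 recomputed values of all kinds, 34 stayed inside the 95% interval of the reported value. The listed share of 5.63% became 3.37% with p and direction from 1 version and 3.26% with p under 0.05. The opposite share of 25.6% became 14.9% with p under 0.05, 27.7% over 100 nt from the motif and 29.7% with calls in at least 2 replicates. With those calls the second-version median became -0.24, the lower start peak was on 90.8% of transcripts and the median score was 2.98. Above the all-peak median score, the first-version median was -0.35, the median score 3.05 and the called share 83.4%. The called share was 67.8% over 100 nt and 46.1% with 3 replicates. The second version gave 86.8% of transcripts and a median score of 2.95. The cause was not tested.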

Other observations

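Some distant-motif start peaks face another start peak on the opposite strand. With strands read from peak order, 56 head-to-head pairs with at least 1 distant-motif start peak lay within 1000 nt, a median of 325.5 nt apart, and in 19 of them both were of that kind. A transcript with only 1 peak has no strand by this reading, so its start peak could not be counted as a facing peak. Both peaks had a first-version difference below 0 in 33 pairs, both above 0 in 6 and unlike signs in 17. A difference below 0 was frequent at any start, with 72.9% of the distant-motif start peaks and 68.6% of all start peaks, those without a strand included. Whether the signs of facing peaks go together was not tested. The pairs are not all separate, as uc007pmu.1 and uc007pmw.1 hold the same position and both start peaks of uc007zii.1 face uc007zih.2. The closest pair, named after its values were seen, 140 nt apart on chromosome 11, was uc007izt.2 (2.18 in the test arm, 2.72 in the comparator arm) and uc007izy.1 (1.35 and 1.88).

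On 5 transcripts there were 2 distant-motif start peaks. On uc007zii.1 the peaks at nucleotides 82 and 142 scored 3.79 and 3.50 in the test arm and 3.64 and 3.42 in the comparator arm, with the motif upstream of the first and downstream of the second. The first was called in all 6 replicates and the second, 60 nt away, in none.

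Chromosome X held 56 distant-motif start peaks, of which 10, or 17.9% (8.91% to 30.4%), met the opposite rule. Of the 1845 on the other chromosomes 25.8% (23.8% to 27.9%) did, so the intervals overlap. The median first-version difference went the other way, -0.55 on chromosome X and -0.38 elsewhere. Over all peaks 10.7% met the rule, and a share over all peaks of chromosome X was not computed.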
